A study of Mus musculus with 33 samples.

Results

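Keratins and the other transcripts of the epidermal barrier were read in sorted CD8 T cells of mouse skin. The members are the gene rows whose symbol is that of a numbered keratin, Krtdap, any Sprr, Lce, Dsg or Flg gene, Dsc1, Dsc2 or Dsc3, Dsp, Lor, Ivl, Sbsn, Perp, Sfn, Dmkn or Col17a1, and that had at least 10 reads summed over the libraries of a count table. This gave 68 genes of 19449, of which 57 were in the first experiment, 54 in the second and 43 in both.

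All mice had been sensitized to and challenged with the hapten dinitrofluorobenzene, DNFB, and CEL-seq2, which counts reads near the 3′ end of transcripts, was run on 33 bulk libraries. The first experiment held 17 libraries of live CD45+CD8+CD69+CD103+ resident memory T cells (TRM) from Nur77GFP mice, whose GFP marks cells with a recent T cell receptor signal. Its groups were GFP-negative TRM just before DNFB retest (day 0) after acetone (3 libraries) or TA (2), GFP-negative and GFP-positive TRM at day 1 after acetone or TA (2 each), and GFP-negative TRM at day 6 after acetone or TA (2 each). TA is the topical glucocorticosteroid of the study, applied at 0.01%, and acetone is its control. The second experiment used C57BL/6 mice and 16 libraries, with 2 for each of 8 groups. These were CD69+CD103-, CD69+CD103+, CD69-CD103- and CD69-CD103+ CD8 T cells at day 2 after DNFB without TA or acetone, and the CD69+CD103+ TRM of day 11 and of day 42, each after acetone or TA.

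The columns of the count tables carry codes and not treatments, so groups are named only where 1 reading of the labels is possible. Code 1 of the first experiment is the only group of 3 and is day 0 acetone. Codes 3 and 4 are the day 1 arms, the only codes with both GFP states, and which of them is TA could not be told. Codes 2, 5 and 6 are day 0 TA, day 6 acetone and day 6 TA in an unknown order. In the second experiment code 1_03 is the day 2 CD69+CD103+ sort, since the ending 03 is shared with all 4 day 11 and day 42 groups. Codes 1_02, 1_04 and 1_05 are the other day 2 subsets, and codes 2_03, 3_03, 4_03 and 5_03 are the 4 groups of day 11 and day 42, both in an unknown order. No label says whether the libraries of a group came from separate mice, so the p-values speak only of the spread of these libraries, which may be technical.

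The epidermis is renewed from a basal layer, whose keratinocytes fill their cytoplasm with filaments of Krt5 paired with Krt14. Cells that leave it switch to Krt1, Krt2 and Krt10, hold to each other by desmosomes, and at the surface crosslink loricrin, involucrin and small proline-rich (Sprr) and late cornified envelope (Lce) proteins into a tough shell. After wounding or inflammation keratinocytes turn on Krt6a, Krt6b, Krt16 and Krt17, which in resting skin are mostly those of the hair follicle. These genes are known as products of epithelial cells, and the sorted cells are lymphocytes. The cell source of the member reads was not tested.

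The members lie mostly in known gene clusters (GRCm38, gene positions from GENCODE vM21). On chromosome 3, 24 members, the Sprr, Lce, Lor, Ivl and Flg2 genes of the epidermal differentiation complex, lie within 92080271 to 93221391. The type I keratins take 15 places on chromosome 11 from 99232761 to 100261029, and the type II keratins, with Krt18, take 15 on chromosome 15 from 101411043 to 102032027. Sbsn, Dmkn and Krtdap stand together on chromosome 7. Some copies could share reads: 21 of the 68 members have at least 1 run of 50 bases in their last 500 that another gene also has, and 14 of them have over 10% of such runs. Most of the 14 are Lce genes. Krt16 shares 16.9%, with Krt14, Krt17 and the predicted gene Gm11597. Krt14 and Krt17 share 9.53% each, with the other keratins of these 3, and Krt6a and Krt6b share none. Sbsn shares 51.0% with the gene Tmem147os, in the same orientation, so strand would not separate reads of these runs. Krt5, Krt6a, Krt6b, Krt10 and Dsp each overlap a predicted gene, and without strand reads of the overlap cannot be told from those of the partner.

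Promoters are shown for 4 members whose levels moved in different ways, the small proline-rich pair Sprr1a and Sprr1b and the keratins Krt5 (basal) and Krt2 (suprabasal). Each runs from 250 bases before to 50 bases after the RefSeq start site (GRCm38.p6, minus strand, written 5′ to 3′), and both strands were searched. Capitals mark TGANTCA, the letters used here for an AP-1 site, where N is any base. They also mark the TATA box letters TATAAA.
Sprr1a, chr3:92485832-92486131: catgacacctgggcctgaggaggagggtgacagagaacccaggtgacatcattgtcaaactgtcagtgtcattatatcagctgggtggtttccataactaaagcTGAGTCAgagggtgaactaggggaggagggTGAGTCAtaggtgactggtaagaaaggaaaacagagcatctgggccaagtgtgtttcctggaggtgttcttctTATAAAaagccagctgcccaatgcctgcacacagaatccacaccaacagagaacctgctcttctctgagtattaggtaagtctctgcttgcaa
Sprr1b, chr3:92438730-92439029: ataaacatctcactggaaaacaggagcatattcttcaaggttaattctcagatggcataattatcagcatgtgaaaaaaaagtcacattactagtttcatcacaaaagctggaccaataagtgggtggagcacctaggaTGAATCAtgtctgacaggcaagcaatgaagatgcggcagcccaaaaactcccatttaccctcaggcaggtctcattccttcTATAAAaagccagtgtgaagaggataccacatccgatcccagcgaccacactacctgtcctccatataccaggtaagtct
Krt5, chr15:101712856-101713155: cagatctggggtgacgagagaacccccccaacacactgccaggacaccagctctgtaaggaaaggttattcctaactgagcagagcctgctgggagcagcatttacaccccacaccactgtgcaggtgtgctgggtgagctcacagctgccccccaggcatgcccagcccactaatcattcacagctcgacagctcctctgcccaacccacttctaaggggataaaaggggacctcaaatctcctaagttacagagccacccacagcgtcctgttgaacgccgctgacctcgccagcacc
Krt2, chr15:101818120-101818419: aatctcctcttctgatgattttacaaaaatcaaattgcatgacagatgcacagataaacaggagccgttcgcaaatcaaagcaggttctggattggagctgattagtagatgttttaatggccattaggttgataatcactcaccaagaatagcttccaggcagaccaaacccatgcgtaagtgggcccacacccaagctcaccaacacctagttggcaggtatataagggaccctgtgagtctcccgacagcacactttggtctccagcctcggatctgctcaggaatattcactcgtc
The Sprr1a window holds 2 AP-1 matches, both TGAGTCA, and the Sprr1b window 1, TGAATCA. Each of these windows has 1 TATAAA, and the Krt5 and Krt2 windows hold neither motif. Among 51 member promoters (49 genes) 15 (29.4%) held TGANTCA, against 7.81% of all 32851 promoters in the table, and 25 (49.0%) held TATAAA, against 13.6%. Those with TGANTCA include more than 1 window of Dmkn and several neighbouring Sprr genes, so they are not independent. The AP-1 letters were in windows of the Sprr, Lor, Ivl, Flg2, Sbsn, Dmkn and Krtdap genes and in no keratin window. The other members had no matched promoter, among them Krt6a, Krt6b, Krt16, Krt17, Krt1, Krt15, Perp and the Dsc and Dsg genes.

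Library totals ran from 2442825 to 8515297 reads in the first experiment and from 2937814 to 13629838 in the second. The sort was checked with 11 CD8 T cell genes, which summed to between 7067 and 15775 CPM in every library (CPM, a gene's reads with each library scaled to the same total). Mononuclear phagocyte genes, Langerhans cells included, summed to 18.4 to 944 CPM, with Cd207 at 0 in 3 libraries, melanocyte genes to 0 to 32.3 CPM and endothelial genes to 0 to 61.4 CPM. Libraries of the same group agreed on the members with Pearson correlations of log2(CPM + 1) from 0.842 to 0.987 across genes, which are not independent replicates.

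Member reads were present in every library. In the first experiment they took 0.477%, 0.435% and 0.453% of reads at day 0 acetone, 0.204% and 0.213% in code 2, 0.378% and 0.370% in code 3 GFP-negative and 0.175% and 0.219% in code 3 GFP-positive TRM. They took 0.0769% and 0.0988% in code 4 GFP-negative, 0.0802% and 0.0695% in code 4 GFP-positive, 0.149% and 0.152% in code 5 and 0.802% and 0.864% in code 6. The code 4 libraries were the lowest and the code 6 libraries the highest of this experiment, and libraries of a group lay close to each other. In the second experiment the share was 0.424% and 0.404% in code 1_02, 0.669% and 1.02% in day 2 CD69+CD103+, 0.563% and 0.648% in code 1_04 and 0.792% and 0.923% in code 1_05. It was 0.552% and 0.526% in code 2_03, 0.538% and 0.465% in code 3_03, 0.732% and 0.569% in code 4_03 and 0.269% and 0.292% in code 5_03. In these bulk libraries fewer cells of a type and less RNA per cell cannot be told apart.

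**Figure D1:**
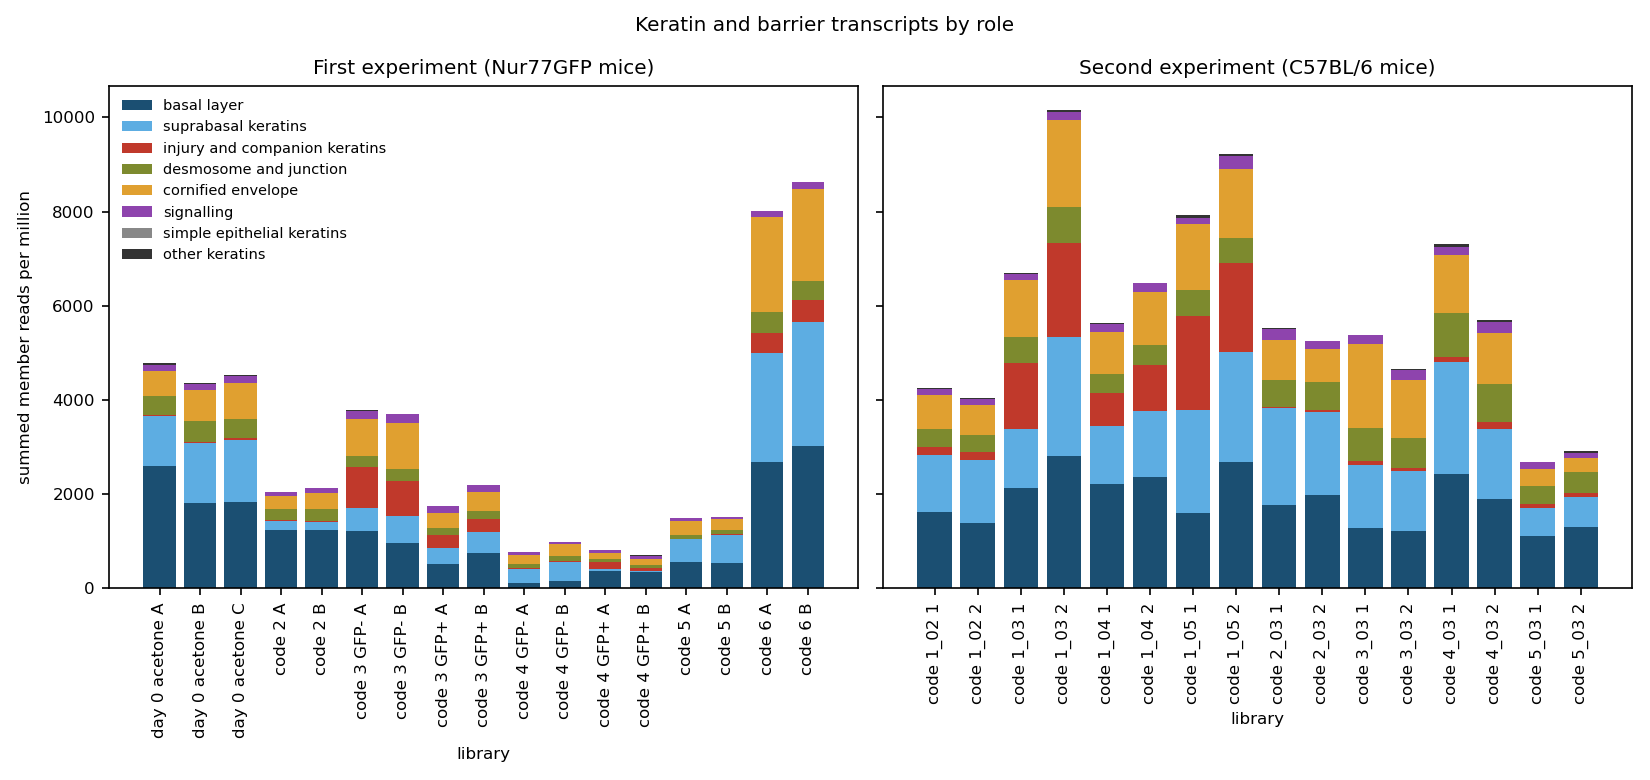
Summed member CPM in each of the 33 libraries (bars, 1 per library), divided by the role of the member genes. The code 4 bars are the shortest, the code 6 bars the tallest of the first experiment. The injury keratin segment is large in code 3, in code 6 and in day 2 codes 1_03, 1_04 and 1_05.

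The make-up of the member reads also varied. Basal layer transcripts (4 genes) took 13.6% and 15.1% of member reads in code 4 GFP-negative TRM and 60.4% and 58.0% in code 2, and the libraries of all other groups lay between. Suprabasal keratins (5 genes) took 39.3% and 41.3% in code 4 GFP-negative and only 5.24% and 3.71% in code 4 GFP-positive TRM. Injury and companion keratins (6 genes) took 0.576%, 0.724% and 0.708% at day 0 acetone, 22.5% and 19.8% in code 3 GFP-negative TRM and 20.8% and 19.7% in day 2 CD69+CD103+ cells. The members thus did not move in 1 ratio from group to group.

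**Figure D2:**
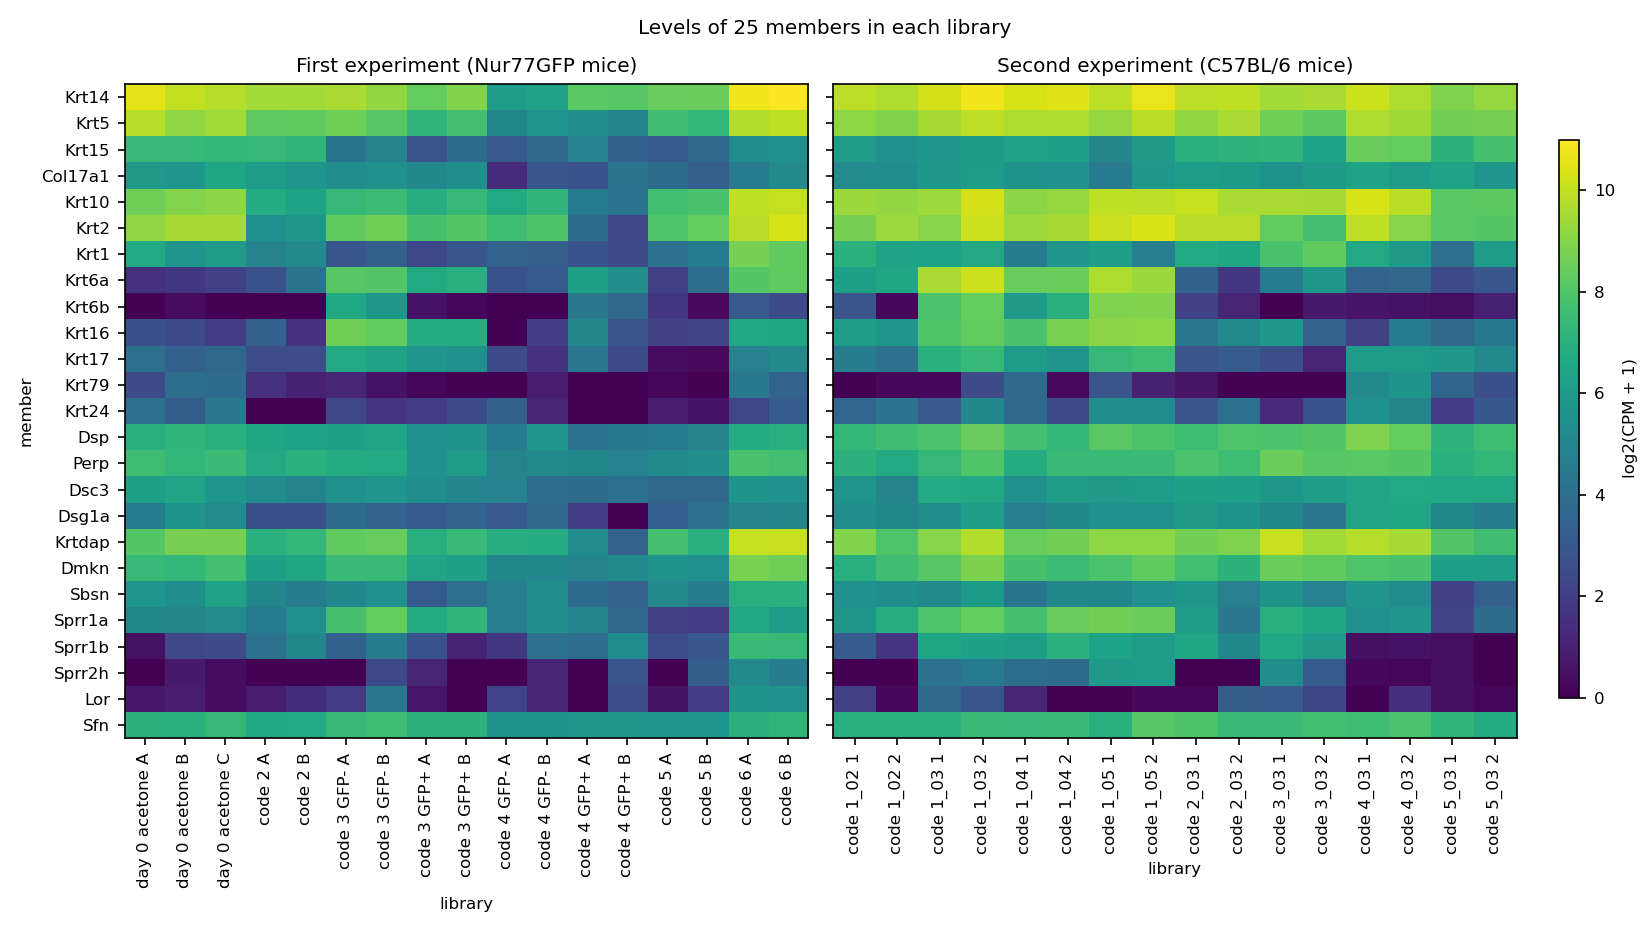
Level of 25 members (rows, on a log2(CPM + 1) scale) in each library (columns) of both experiments. Krt14, Krt5, Krt10, Krt2 and Krtdap are bright in most columns, while Krt6b, Krt79, Sprr2h and Lor go from dark to bright between groups.

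The first comparison asks how the day 1 arms differ in GFP-negative TRM. Member transcripts were lower in code 4 than in code 3 for 14 genes and higher for none, among 37 members tested, and DESeq2 and an unadjusted p under 0.05 gave none higher either. Over all 11588 genes tested, 4.7% were lower and 1.98% higher. The 14 came from 5 of the 8 roles: 3 basal (Krt14, Krt5, Col17a1), 4 injury keratins (Krt6a, Krt6b, Krt16, Krt17), 2 junction genes (Perp, Dsp), 4 envelope genes (Dmkn, Sprr1a, Krtdap, Sprr2g) and Sfn.

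Krt14, the basal type I keratin, was at 779.9 and 602 CPM in the 2 code 3 libraries and 63.9 and 79.0 CPM in code 4. Krt5, its type II partner, was at 380.3 and 281 against 31.9 and 51.6 CPM. Both code 4 libraries were far below both code 3 libraries for either gene. The log2 difference, code 4 minus code 3, was -3.33 ± 0.24 (SE, adjusted p = 2.49e-08) for Krt14 and -3.04 ± 0.27 (SE, adjusted p = 3.99e-07) for Krt5. Dmkn, a secreted epidermal protein, was at 178 and 167 CPM against 31.9 and 33.3 CPM, a difference of -2.46 ± 0.22 (SE, adjusted p = 3.30e-07). Sfn, the 14-3-3 sigma protein of keratinocytes, was at 173 and 193 CPM against 47.5 and 47.2 CPM, a difference of -2.00 ± 0.19 (SE, adjusted p = 7.00e-07).

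The differences of the injury keratins were large. Krt6a was at 282 and 262 CPM in code 3 and 5.73 and 7.94 in code 4, a log2 difference of -5.36 ± 0.57 (SE, adjusted p = 9.22e-06). Krt17 was at 101 and 80.7 against 4.91 and 1.98 CPM, and its difference was -4.77 ± 0.56 (SE, adjusted p = 1.13e-05). Krt16, the partner of Krt6a in stressed epidermis, had 2051 and 2229 reads in code 3 and 0 and 8 in code 4 (adjusted p = 2.53e-05). Krt6b had 498 and 370 reads in code 3 and none in code 4, which makes it at least 118-fold lower when 3 reads over the group are allowed (adjusted p = 8.98e-05). The lower limit covers counting error only. Sprr1a, an envelope precursor that rises in stressed epidermis, was at 225 and 338 CPM against 25.0 and 41.3 CPM, a log2 difference of -3.13 ± 0.40 (SE, adjusted p = 3.90e-05). Sprr2g, another envelope precursor, had 15 and 100 reads in code 3 and none in code 4, at least 15.6-fold lower by the same rule (adjusted p = 0.0324).

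None of the 4 suprabasal keratins tested passed in this comparison. Krt10 was at 166 and 187 CPM in code 3 and 103 and 152 in code 4 (adjusted p = 0.213). Krt2 was at 319 and 383 CPM in code 3 and 189 and 246 in code 4 (adjusted p = 0.145). Per 100 reads of Krt14 there were 296 and 312 reads of Krt2 in code 4 GFP-negative TRM and 40.8 and 63.5 in code 3, where 3′ end reads of 2 genes are set side by side without a correction for length. The median log2 difference was -2.00 over the 37 members (-1.56 over 36 with those without reads at their lower limit) and -0.07 over all genes.

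Other epidermal and skin genes moved in the same comparison. Of 48 listed partners of the barrier, such as adhesion genes and proteases that are no members, 42 were tested and 14 were lower and 0 higher (0 higher also by DESeq2 and at an unadjusted p under 0.05), among them Ly6d (log2 difference -2.28, adjusted p = 1.12e-07), the protease inhibitor Serpinb5 (log2 difference -3.27, adjusted p = 2.61e-07) and the galectin Lgals7 (log2 difference -1.89, adjusted p = 5.37e-05). The phagocyte genes, 9 with rows, summed to 835 and 828 CPM in code 3 GFP-negative and 19.2 and 38.9 CPM in code 4 GFP-negative TRM, with 5 of the 9 read in each code 4 library and Csf1r, Lyz2 and Mrc1 at 0 in both. The CD8 genes summed to 11910.1 and 11764 CPM in code 3 and 7556 and 7067 CPM in code 4. Neutrophil genes (5 listed) summed to 82.0 and 89.2 CPM in code 3 and 11.5 and 11.9 CPM in code 4. Mitochondrial genes took 28.6% and 28.4% of reads in code 3 and 35.8% and 36.7% in code 4, and 11934 and 12667 genes were read in code 3 against 10284 and 10068 in code 4. The part of these cells and of RNA quality in the member differences was not tested.

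In GFP-positive TRM the arms were compared in the same way, with other libraries. Here 14 members were lower in code 4 and 1 was higher, of 37, against 2.24% lower and 0.923% higher over all genes. Without code 3 GFP-positive B the count called fell from 15 to 8, and without code 4 GFP-positive B to 9, each time with the lone library taken to vary like the other groups. Krt2 was at 221 and 275 CPM in code 3 and 13.8 and 4.11 in code 4, and Krt10 was at 116 and 165 CPM in code 3 and 22.4 and 17.2 in code 4. These suprabasal keratins, which did not pass in GFP-negative TRM, had the lowest adjusted p here, with -4.87 ± 0.36 (SE, adjusted p = 1.89e-07) for Krt2 and -2.95 ± 0.26 (SE, adjusted p = 7.50e-07) for Krt10. Krt5 was at 146 and 210.3 CPM in code 3 and 43.5 and 29.9 in code 4, a difference of -2.40 ± 0.27 (SE, adjusted p = 1.55e-05). Krt14 was at 335 and 478 CPM in code 3 and 286 and 284 in code 4 and did not pass (adjusted p = 0.140). Krt5 thus had 15.2 and 10.5 reads per 100 of Krt14 in code 4 GFP-positive TRM, and at least 37.9 in every other library. Sfn, Sprr1a and Dmkn were lower as well, with log2 differences of -1.41, -2.71 and -1.38 (adjusted p = 0.000100, 0.000390 and 0.000628). Krt6b was the exception, with 4 and 1 reads in code 3 and 63 and 32 in code 4, a difference of 5.38 ± 0.95 (SE, adjusted p = 0.00331). The median was -1.03 over the members (-1.38 over 29, with those without reads at their limit) and -0.09 over all genes, and 7 of the 42 barrier partners were lower and 0 higher (0 by DESeq2 and 1 at an unadjusted p under 0.05). Mitochondrial genes took 22.4% and 25.9% of reads in code 3 GFP-positive and 29.3% and 30.1% in code 4 GFP-positive TRM, and their part was not tested.

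A second question is how GFP-positive TRM, which had recently signalled, compare with GFP-negative TRM. Averaged over both arms, 6 of 37 members were lower in GFP-positive TRM, against 6.51% of all genes, and 1 was higher, against 5.59%. With no low-count filter 12 members were called in place of 7. Krt2, Krt10, Sbsn and Krtdap were lower, with log2 differences of -2.40, -1.37, -1.53 and -1.53 (adjusted p = 8.50e-07, 1.54e-05, 0.000974 and 0.00278). All are products of the differentiating layers. Krtdap was at 313 and 343 CPM in GFP-negative and 121 and 173 in GFP-positive TRM of code 3, and in code 4 at 113 and 110.4 and at 38.6 and 10.1 CPM, so every GFP-positive library lay below both GFP-negative libraries of its code. Dsp, the desmosomal plakin, had a log2 difference of -0.74 (adjusted p = 0.0324). Its call was lost without any 1 of the 4 code 3 libraries, code 4 GFP-negative B (log2 difference -0.32) or code 4 GFP-positive A, with an adjusted p of up to 0.406. Krt24 was called at an adjusted p of 0.0445 from 24 and 3 reads in code 4 GFP-negative and none in code 4 GFP-positive TRM, and lost its call without any 1 library except code 4 GFP-negative B (adjusted p up to 0.243). Krt14 was higher, by 0.75 ± 0.15 (SE, adjusted p = 0.00253). Among the barrier partners 5 were lower, with Cdh1 (log2 difference -1.84, adjusted p = 3.91e-08) the lowest by adjusted p, and 2 higher. The median difference was -0.59 over the members (-0.50 over 36, with those without reads at their limit) and -0.03 over all genes.

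The average covers arms that differed. For 7 members the GFP difference in code 4 was not that in code 3, 5 higher and 2 lower, against 0.639% and 0.25% of all genes. Without code 3 GFP-positive A, or without code 4 GFP-negative A, the count fell to 4, while DESeq2 called 12 and edgeR with no low-count filter 13. In code 3 Krt14 was at 779.9 and 602 CPM in GFP-negative and 335 and 478 in GFP-positive TRM, and in code 4 at 63.9 and 79.0 CPM in GFP-negative and 286 and 284 in GFP-positive TRM. Its GFP difference was -0.60 ± 0.21 (SE, adjusted p = 0.128) in code 3 and 2.10 ± 0.23 (SE, adjusted p = 8.61e-06) in code 4, and these differed by 2.70 ± 0.31 (SE, adjusted p = 0.000120). Krt2, with the values given above, had a GFP difference of -0.33 ± 0.28 (SE, adjusted p = 0.653) in code 3 and -4.46 ± 0.35 (SE, adjusted p = 3.49e-07) in code 4. The GFP differences of Krt2 differed by -4.14 ± 0.45 (SE, adjusted p = 9.48e-05), and those of Krt10 by -2.43 ± 0.34 (SE, adjusted p = 0.000758). In code 4 the GFP-positive libraries thus had more Krt14 and less Krt2 and Krt10 than the GFP-negative ones, and in code 3 none of the 3 passed by GFP.

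The GFP differences of 3 injury keratins also differed between the codes, in the direction of Krt14. Krt6a was at 282 and 262 CPM in GFP-negative and 102 and 122 in GFP-positive TRM of code 3, and in code 4 at 5.73 and 7.94 CPM in GFP-negative and 75.4 and 44.1 in GFP-positive TRM. Its GFP differences differed by 4.33 ± 0.71 (SE, adjusted p = 0.00464). Krt16 was at 377 and 331 CPM in GFP-negative and 109 and 110.3 in GFP-positive TRM of code 3, and in code 4 at 0 and 3.18 and at 31.6 and 6.35 CPM. Its GFP differences differed by 5.19 ± 1.04 (SE, adjusted p = 0.0270), and by 11.21 without code 4 GFP-negative B, which held all Krt16 reads of its group. The call of Krt6a was lost without code 3 GFP-positive A or either code 4 GFP-negative library (adjusted p up to 0.0844). That of Krt16 was lost without any 1 code 3 library, code 4 GFP-negative A or code 4 GFP-positive A (up to 0.174). Krt6b had 498 and 370 reads in GFP-negative and 4 and 1 in GFP-positive TRM of code 3, but 0 and 0 against 63 and 32 in code 4, where it was at least 26.4-fold higher in GFP-positive TRM. Krt6b kept its call in all 13 alternatives. Reads of Sprr2d were few, 22 and 25 in code 3 GFP-negative and 1 and 16 in code 4 GFP-positive TRM with none in the other day 1 groups, and its call was lost without any 1 library except code 4 GFP-positive A (adjusted p up to 0.223). None of the 42 barrier partners was called by edgeR in this comparison, while 14 had an unadjusted p under 0.05 and DESeq2 called 6. The phagocyte genes summed to 313 and 324 CPM in code 4 GFP-positive and 782 and 628 CPM in code 3 GFP-positive TRM, and their part was not tested.

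**Figure D3:**
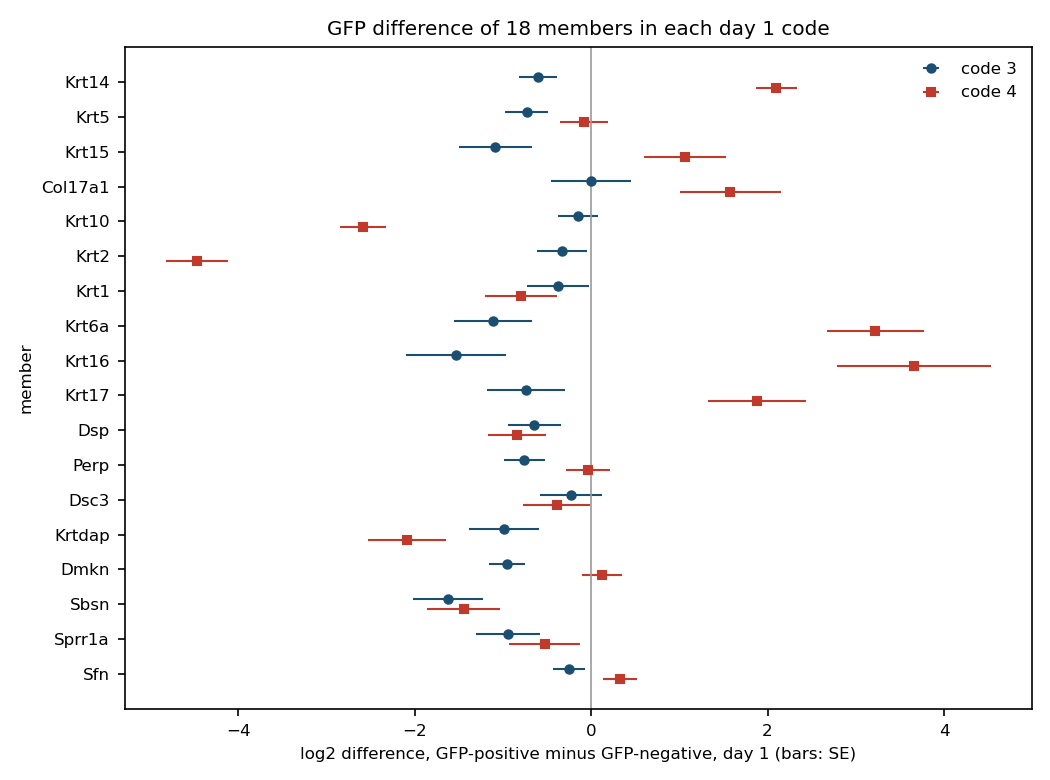
Log2 difference between GFP-positive and GFP-negative TRM at day 1 for 18 members, in code 3 (circles) and code 4 (squares), with the SE as bars and 2 libraries per group. In code 4 Krt14, Krt6a, Krt16 and Krt17 lie to the right of 0 and Krt2, Krt10 and Krtdap to the left, while in code 3 most points lie between -2 and 0.

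Each day 1 arm was then set against day 0 acetone in GFP-negative TRM, and both comparisons share the 3 day 0 libraries. In code 3, 8 of 37 members rose and 4 fell, against 2.78% and 1.16% of all genes. In code 4, 14 fell and 0 rose, against 5.15% and 3.48%, and 1 rose by DESeq2 and by an unadjusted p under 0.05.

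In code 3 the genes that rose were the injury keratins and envelope precursors. Krt6a went from 2.04, 2.43 and 3.44 CPM at day 0 to 282 and 262 CPM, a log2 rise of 6.91 ± 0.51 (SE, adjusted p = 2.15e-07). Krt16 went from 5.50, 4.58 and 2.87 to 377 and 331 CPM, a rise of 6.52 ± 0.61 (SE, adjusted p = 8.89e-06). Krt17 went from 15.3, 9.45 and 12.3 to 101 and 80.7 CPM, a rise of 3.10 ± 0.42 (SE, adjusted p = 0.000100). No code 3 library overlapped the day 0 range of any of these. Krt6b had 0, 2 and 0 reads at day 0 and 498 and 370 in code 3, a ratio of 548 with a 95% exact counting interval from 151 to 4532. Sprr1a rose by 3.24 ± 0.34 (SE, adjusted p = 6.12e-06), from 32.6, 30.9 and 39.0 to 225 and 338 CPM. Sprr2d had no reads at day 0 and 22 and 25 in code 3, at least 19.8-fold higher. Sprr2g had 0, 1 and 0 reads at day 0 and 15 and 100 in code 3 (adjusted p = 0.0112), and its call was lost without day 0 acetone A and without code 3 GFP-negative B. Lor, which encodes loricrin, the main envelope protein, had 3, 6 and 1 reads at day 0 and 15 and 134 in code 3 (adjusted p = 0.0356), mostly in library B.

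The genes that fell in code 3 were keratins of resting epidermis. Krt15, a basal and hair follicle bulge keratin, went from 158, 165 and 153 to 18.4 and 29.2 CPM, a log2 change of -2.54 ± 0.40 (SE, adjusted p = 0.000500). Krt1, an early suprabasal keratin, went from 101, 53.3 and 67.7 to 6.62 and 9.35 CPM, a change of -2.99 ± 0.33 (SE, adjusted p = 8.89e-06). Krt10 went from 379.6, 493 and 536 to 166 and 187 CPM, a change of -1.22 ± 0.22 (SE, adjusted p = 0.00176). Krt5 had a difference of -0.91 ± 0.23 (SE, adjusted p = 0.0275), and this call was lost without day 0 acetone A or C and without code 3 GFP-negative B (adjusted p up to 0.323). The median was 0.57 over the members, the same with those without reads at their limit, and -0.03 over all genes. Of the partners, 3 were higher, led by the glutathione transferase Gsta4 (log2 difference 5.72, adjusted p = 5.57e-07) and the water channel Aqp3 (log2 difference 2.97, adjusted p = 0.000482), and Klf4, a barrier transcription factor, was lower (log2 difference -0.77, adjusted p = 0.0337).

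Genes of other cells moved in this comparison too. The phagocyte genes summed to 388, 273 and 209 CPM at day 0 and 835 and 828 CPM in code 3, and the fibroblast genes (7 listed) to 43.6, 159 and 169 CPM at day 0 and 12.7 and 4.60 CPM in code 3. The neutrophil genes summed to 8.76, 10.7 and 1.72 CPM at day 0 and 82.0 and 89.2 CPM in code 3. In this list S100a8 went from 0.815, 0.430 and 0.287 to 29.6 and 38.6 CPM and S100a9 from 0.407, 0.573 and 0.573 to 41.4 and 35.3 CPM, while Csf3r was at 0 in all 5 libraries. Retnlg, also in the list, had no read at day 0 and was at 2.76 and 6.53 CPM in code 3. Cxcr2, most of the sum in day 0 acetone A and B, was at 7.54, 9.74 and 0.860 CPM at day 0 and 8.27 and 8.75 CPM in code 3. S100a8 and S100a9 are also known from inflamed keratinocytes. The part of these cells in the member differences was not tested.

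In code 4 the genes that fell came mostly from the basal layer, the junctions and the suprabasal layers. The rest were Dmkn, Krtdap, Sfn and Krt79. Krt14 went from 1492, 1004 and 877 CPM at day 0 to 63.9 and 79.0 CPM, a log2 change of -3.82 ± 0.24 (SE, adjusted p = 3.92e-09), and Krt5 from 887, 582 and 706 to 31.9 and 51.6 CPM, a change of -3.95 ± 0.27 (SE, adjusted p = 2.02e-08). Krt15 went from the levels given above to 7.37 and 12.3 CPM, a change of -3.86 ± 0.45 (SE, adjusted p = 1.11e-05), and Krt1 to 10.2 and 9.13 CPM, a change of -2.76 ± 0.34 (SE, adjusted p = 2.11e-05). Perp, a junction protein of stratified epithelia, went from 188, 153 and 182 to 29.5 and 36.1 CPM, a change of -2.25 ± 0.24 (SE, adjusted p = 3.30e-06). Dmkn went from 163, 155 and 209 to 31.9 and 33.3 CPM, a change of -2.27 ± 0.21 (SE, adjusted p = 5.71e-07). Every code 4 library lay below every day 0 library for these genes. Dsp went from 121, 151 and 127 to 21.7 and 52.0 CPM (adjusted p = 0.000830). Dsc3, a desmosomal cadherin, went from 76.0, 84.6 and 54.5 to 28.7 and 14.3 CPM (adjusted p = 0.00612). Col17a1, the hemidesmosome collagen that anchors basal cells, went from 60.3, 54.7 and 86.3 to 1.64 and 6.75 CPM (adjusted p = 0.000106). Krt6a, Krt6b, Krt16 and Krt17 did not pass here, and Krt6a was at 5.73 and 7.94 CPM. Krt79, which was only placed in the same role as these keratins, was lower (adjusted p = 0.0396). It ran from 4.68 to 14.8 CPM at day 0 and was at 0 and 0.794 CPM in code 4. The median was -1.67 over the members (-1.59 over 31, with those without reads at their limit) and -0.11 over all genes, and 13 of the 42 partners were lower and 0 higher (1 higher by DESeq2 and at an unadjusted p under 0.05). The phagocyte genes were lower in code 4 than at day 0, by the sums given above. The fibroblast genes summed to 39.7 and 11.9 CPM in code 4. Mitochondrial genes took 24.9%, 31.5% and 26.2% of reads at day 0 and 35.8% and 36.7% in code 4, with 12091, 13120 and 11217 genes read at day 0 against 10284 and 10068 in code 4. The part of these in the member differences was not tested.

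**Figure D4:**
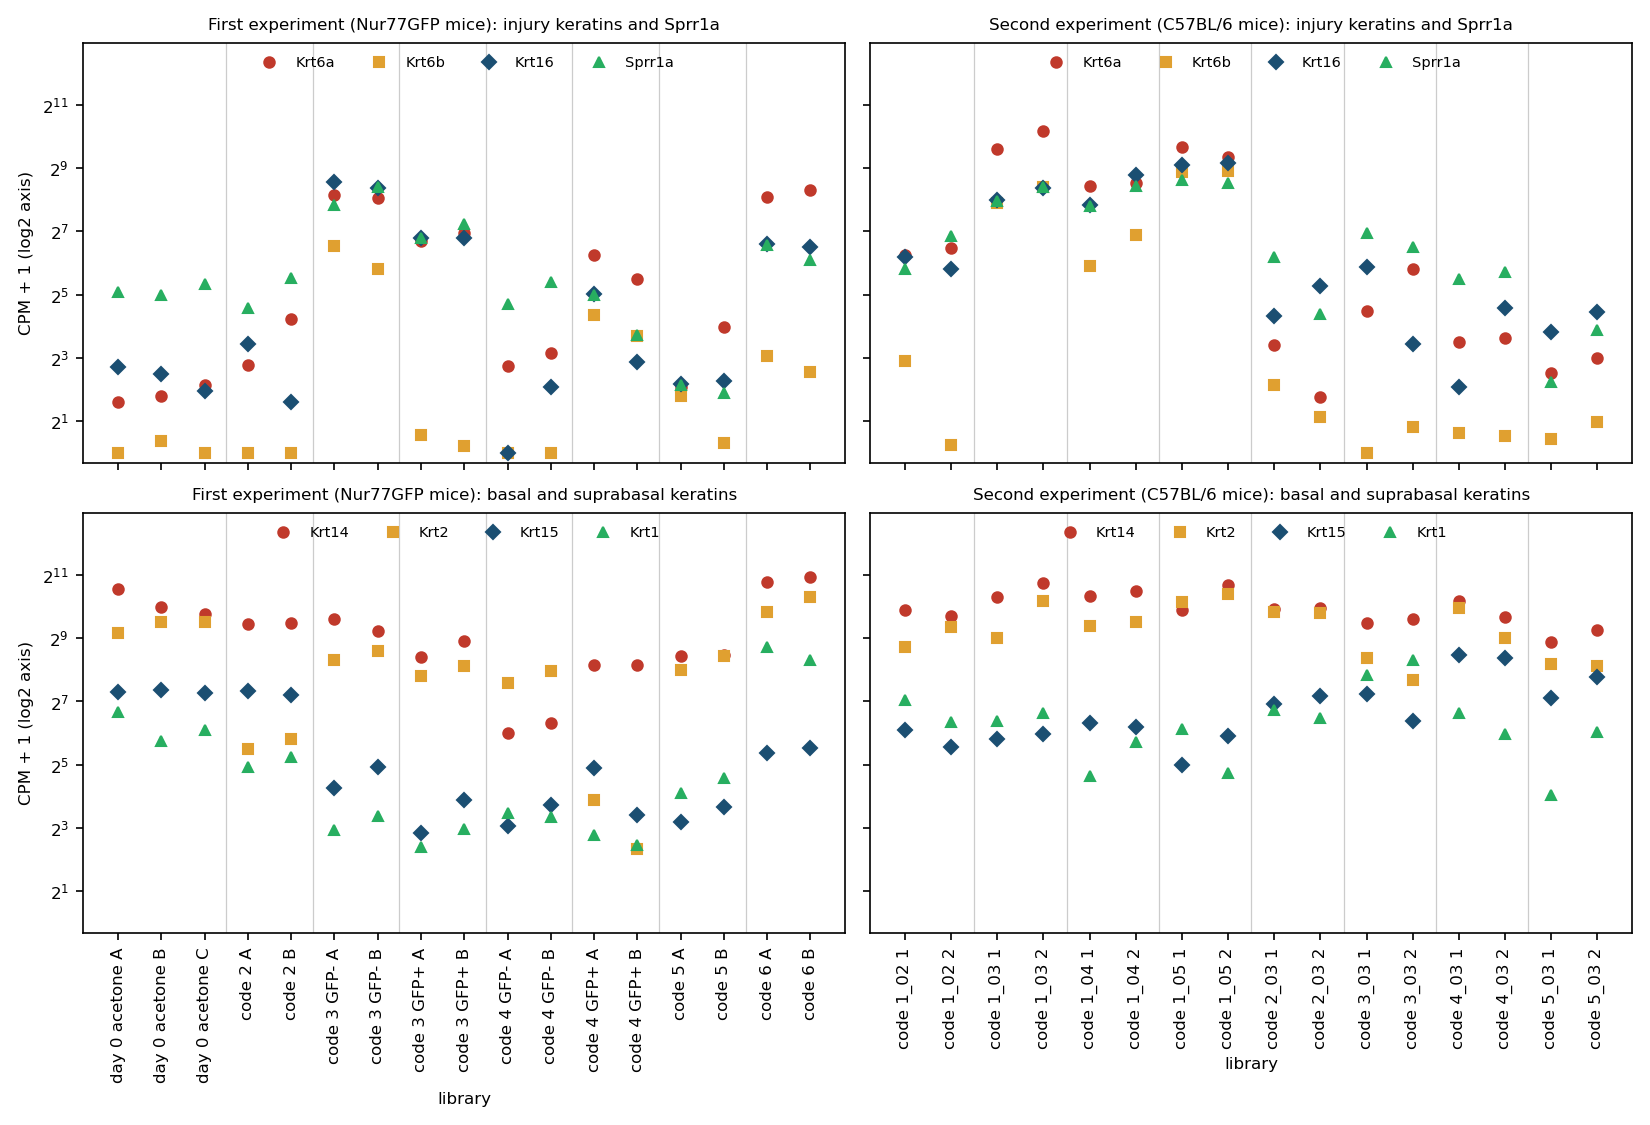
Levels (CPM + 1, log2 axis) of Krt6a, Krt6b, Krt16 and Sprr1a (top) and of Krt14, Krt2, Krt15 and Krt1 (bottom) in each library, with grey lines between groups. The injury keratins are high in code 3 GFP-negative TRM, code 6 and the day 2 codes 1_03, 1_04 and 1_05 and low at day 0, in code 5 and after day 2, and Krt14 is lower and Krt2 higher in code 4 GFP-negative than in code 4 GFP-positive TRM.

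The remaining GFP-negative groups of the first experiment are day 0 acetone and codes 2, 5 and 6, and a test for any difference among the 4 needs no treatment named. Here 27 of 37 members passed, against 9.5% of all genes. By adjusted p the first were Dmkn (9.66e-09), Krt1 (1.98e-08), Krt10 (2.92e-08), Krt6a (4.87e-08), Krt2 (2.80e-07) and Krt14 (1.68e-06). Code 6 was the highest group for each of these 6. Krt1 was at 101, 53.3 and 67.7 CPM at day 0 acetone, 29.3 and 36.6 in code 2, 16.4 and 23.2 in code 5 and 424 and 317 in code 6. Krt2 was at 569, 727 and 722 CPM at day 0 acetone, 44.5 and 55.2 in code 2, 252 and 342 in code 5 and 913 and 1272 in code 6. Krt2 was lowest in code 2, with 6.35 and 7.68 reads per 100 of Krt14.

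Krt14 was at 702 and 719 CPM in code 2, 349 and 357 in code 5 and 1762 and 1947 in code 6. Krt15 separated the groups in another way, at 159 and 147 CPM in code 2, like the day 0 acetone level, 8.13 and 11.7 in code 5 and 40.3 and 45.0 in code 6. Krt6a was at 5.86 and 17.6 CPM in code 2, 3.25 and 14.9 in code 5 and 272 and 313 in code 6, so only code 6 of these groups held much Krt6a. Krt16 was at 9.77 and 2.03 CPM in code 2, 3.52 and 3.83 in code 5 and 96.4 and 89.3 in code 6. Sprr1b, the close relative of Sprr1a, was at 0.407, 4.01 and 4.87 CPM at day 0 acetone, 16.8 and 32.5 in code 2, 5.28 and 6.98 in code 5 and 167 and 163 in code 6. Sprr1a was at 22.7 and 45.1 CPM in code 2, 3.39 and 2.70 in code 5 and 94.6 and 66.6 in code 6. In code 3 GFP-negative TRM, where Sprr1a was at its highest of the first experiment, Sprr1b was at 9.56 and 24.0 CPM. Lor was at 51.2 and 46.9 CPM in code 6, 0.781 and 1.69 in code 2 and 0.406 and 2.70 in code 5. Krtdap, a secreted keratinocyte protein, was at 270.3, 422 and 425 CPM at day 0 acetone, 128 and 155 in code 2, 213 and 125 in code 5 and 1057 and 1078 in code 6. Among the partners 22 of 42 passed, led by Ly6d (adjusted p = 4.37e-08) and Lgals7 (adjusted p = 1.29e-07). The phagocyte genes summed to 18.4 and 24.7 CPM in code 2, 256 and 221 in code 5 and 215 and 278 in code 6, against the day 0 acetone values given above. Mitochondrial genes took 36.3% and 34.9% of reads in code 2, 24.5% and 24.4% in code 5 and 25.4% and 22.2% in code 6. The part of both was not tested.

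At day 2 in the second experiment the question is whether the 4 subsets by CD69 and CD103 differ. Of 40 members tested 6 passed, against 1.21% of the 12236 genes tested: Krt6a, Krt17, Sprr2h, Krt6b, Sprr1b and Dmkn. With genes of low counts kept in the test, 15 passed. Krt6a was at 75.6 and 87.2 CPM in code 1_02, 777 and 1158 in CD69+CD103+ cells, 345 and 366 in code 1_04 and 801 and 646 in code 1_05 (adjusted p = 0.00120). Krt6b was at 6.50 and 0.187 CPM in code 1_02, 234 and 339 in CD69+CD103+ cells, 58.7 and 117 in code 1_04 and 469 and 483 in code 1_05 (adjusted p = 0.00264). Code 1_02 was the lowest for both and code 1_04 the next, with no overlap, while CD69+CD103+ cells and code 1_05 overlapped for Krt6a. Without code 1_02 replicate 1 the adjusted p of Krt6a was 0.0541.

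Krt17 was at 24.5 and 16.5 CPM in code 1_02, 127 and 166 in CD69+CD103+ cells, 64.0 and 52.4 in code 1_04 and 159 and 190.1 in code 1_05 (adjusted p = 0.00131). Sprr1b was at 8.27 and 2.25 CPM in code 1_02 and from 67.0 to 128 CPM in the other 6 libraries (adjusted p = 0.00436). Sprr2h had no read in code 1_02, and was at 16.6 and 22.5 CPM in CD69+CD103+ cells, 14.7 and 13.3 in code 1_04 and 61.6 and 67.3 in code 1_05 (adjusted p = 0.00145). Dmkn was at 119 and 199 CPM in code 1_02, 279 and 456 in CD69+CD103+ cells, 222 and 185 in code 1_04 and 233 and 313 in code 1_05 (adjusted p = 0.0434), and lost its call without code 1_02 replicate 1, CD69+CD103+ replicate 2 or code 1_04 replicate 2 (adjusted p up to 0.308). The keratins of resting epidermis did not pass: Krt14 ran from 827 to 1713 CPM over the 8 day 2 libraries, and Krt10 from 546 to 1264 CPM. Of 45 partners 1 passed. The phagocyte genes summed to 111 and 119 CPM in code 1_02 and 626 and 593 in code 1_05, with 457 and 453 in CD69+CD103+ cells and 271 and 311 in code 1_04. The neutrophil genes summed to 13.3 and 12.5 CPM in code 1_02, 121 and 130.4 in CD69+CD103+ cells, 64.6 and 111 in code 1_04 and 101 and 93.5 in code 1_05. Most of each sum came from S100a8 and S100a9. The part of these cells was not tested.

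Among the 4 groups of day 11 and day 42, 16 of 40 members passed a test for any difference, against 2.12% of all genes. Without code 5_03 replicate 1 the count was 10. The first by adjusted p were Sprr1b (4.77e-06), Krt17 (5.56e-05), Sprr2h (7.75e-05), Dmkn (0.000206), Krt10 (0.00104) and Krt6a (0.00348). Sprr1b was at 89.4 and 34.5 CPM in code 2_03 and 94.9 and 61.5 in code 3_03, but had 2 and 3 reads in code 4_03 and 1 and 0 in code 5_03. Sprr1a, from the neighbouring gene, was read in all 8 libraries, at 71.3 and 20.1 CPM in code 2_03, 123 and 89.9 in code 3_03, 44.3 and 51.8 in code 4_03 and 3.74 and 13.6 in code 5_03. The Sprr1a window printed above holds 2 matches to the AP-1 letters and the Sprr1b window 1, and each holds 1 TATAAA. The part of these letters in the levels was not tested.

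Krt17 went the other way, at 6.57 and 7.81 CPM in code 2_03 and 5.30 and 1.23 in code 3_03 against 64.9 and 65.3 in code 4_03 and 57.2 and 34.8 in code 5_03. Krt79, a keratin of the hair follicle opening and sebaceous duct, had 3 and 0 reads in code 2_03, 0 and 0 in code 3_03, 205 and 338 in code 4_03 and 31 and 40 in code 5_03 (adjusted p = 0.0329). Codes 4_03 and 5_03 were thus higher for both and codes 2_03 and 3_03 lower, with no overlap. Krt6a was highest in code 3_03, at 21.2 and 55.3 CPM, against 9.61 and 2.40 in code 2_03, 10.3 and 11.3 in code 4_03 and 4.77 and 6.89 in code 5_03. Without code 3_03 replicate 2 its adjusted p was 0.0593. Krt15 was at 120.5 and 142 CPM in code 2_03, 149 and 82.5 in code 3_03, 355 and 332 in code 4_03 and 138 and 219 in code 5_03 (adjusted p = 0.0359). Krt10 was at 289 and 296 CPM in code 5_03 and from 745 to 1294 CPM in the other 6 libraries, and Dmkn at 72.8 and 71.3 CPM in code 5_03 and from 138 to 373 CPM in the others. Of 45 partners 7 passed, the first being the protease inhibitor Cst6 (adjusted p = 1.16e-05) and the defensin Defb6 (adjusted p = 2.02e-05). The fibroblast genes summed to 57.8 and 53.5 CPM in code 2_03, 163 and 405 in code 3_03, 106 and 91.5 in code 4_03 and 366 and 417 in code 5_03, and their part was not tested.

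Day 11 and day 42 together were compared with the same CD69+CD103+ sort at day 2, and here 11 of 40 members were lower, against 4.89% of all genes, and 1 was higher, against 3.33%. Krt6a was at 777 and 1158 CPM at day 2 and from 2.40 to 55.3 CPM (median 9.95) in the 8 later libraries, a log2 difference of -6.44 ± 0.28 (SE, adjusted p = 4.38e-09). Krt6b had 2702 and 3868 reads at day 2 and from 0 to 21 in the later libraries (adjusted p = 2.83e-07). Krt16 was at 255 and 329.7 CPM and later from 3.19 to 57.8 CPM, a difference of -3.77 ± 0.54 (SE, adjusted p = 0.00130). No later library reached the day 2 level of these keratins. Krt17 differed by -3.18 ± 0.28 (SE, adjusted p = 4.32e-07) and Sprr1a by -2.92 ± 0.35 (SE, adjusted p = 7.68e-05). Sprr1b, at 89.0 and 78.2 CPM at day 2, was called at an adjusted p of 2.06e-06, but 1 code 2_03 library and 1 code 3_03 library lay above both day 2 libraries, and the 4 libraries of codes 4_03 and 5_03 held at most 3 reads each. Sprr2h and Sprr2g were called too (adjusted p = 1.67e-05 and 0.00247), and their fold is not given because some later groups had no read.

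The basal keratins moved less and not together. Krt14, at 1268 and 1713 CPM at day 2 and from 473 to 1156 CPM later, was lower, with a log2 difference of -0.92 ± 0.17 (SE, adjusted p = 0.00159). Krt5, at 753 and 965 CPM at day 2 and from 296 to 830.1 CPM later, was lower too, with -0.73 ± 0.16 (SE, adjusted p = 0.00815). Krt15, at 54.7 and 61.9 CPM at day 2 and from 82.5 to 355 CPM later, was the 1 member that rose, by 1.58 ± 0.30 (SE, adjusted p = 0.00183). Every later library had more Krt15 than both day 2 libraries. Dmkn was lower, with -1.05 ± 0.19 (SE, adjusted p = 0.00119). None of the 5 suprabasal keratins and 7 junction genes tested passed by edgeR, and Sfn did not, with Dsp at 236 and 349 CPM at day 2 and from 141 to 464 CPM later. The median was -1.06 over the members, the same to 2 decimals over 39 with the 1 member without reads at its limit, and -0.07 over all genes. Partners split, with 3 of 45 lower, led by Gsta4 (log2 difference -7.46, adjusted p = 4.02e-08) and Fabp5 (log2 difference -2.33, adjusted p = 5.04e-06), and 2 higher, Cdh1 (log2 difference 2.53, adjusted p = 1.13e-07) and Klf4 (log2 difference 1.55, adjusted p = 1.18e-05). Neutrophil genes summed to 121 and 130.4 CPM at day 2 and to at most 18.3 CPM later. The day 2 sum was mostly S100a8 (77.3 and 65.3 CPM) and S100a9 (37.2 and 63.9 CPM), which had almost no reads later. Csf3r was at 0 in all 10 libraries, and Cxcr2, at 5.12 and 1.23 CPM at day 2, reached 18.3 CPM later. Retnlg was at 1.04 and 0 CPM at day 2 and had no read later. Their part was not tested.

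**Figure D5:**
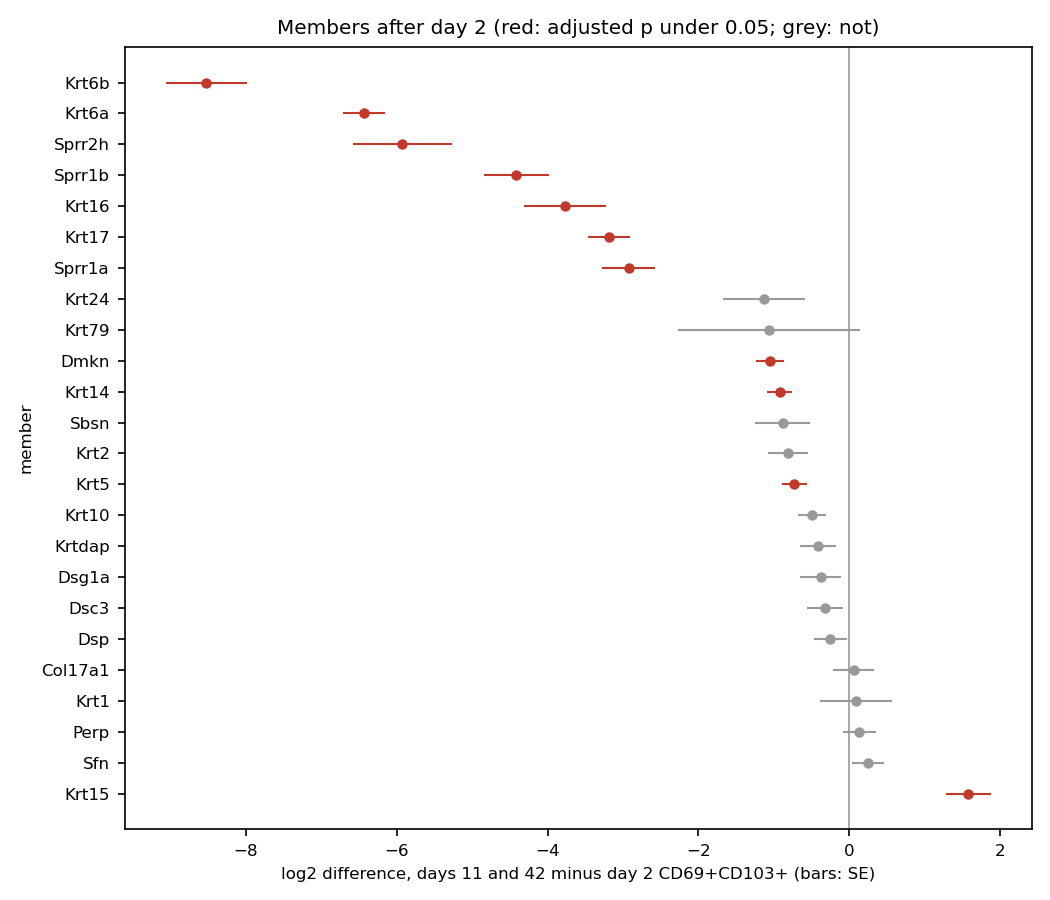
Log2 difference between the mean of the 4 day 11 and day 42 groups (8 libraries) and day 2 CD69+CD103+ cells (2 libraries) for the 24 members tested with at least 500 reads in these libraries, with the SE as bars. Krt6b, Krt6a and the Sprr genes lie far to the left of 0, Krt15 to the right, and junction genes near 0. The value of Sprr2h rests in part on groups without reads.

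The junction genes Dsp, Perp and Dsc3 and Sfn were read in every library of the second experiment. Perp was at 135 and 103 CPM in code 1_02, 160.2 and 258 in day 2 CD69+CD103+ cells, 106 and 169 in code 1_04 and 168 and 179 in code 1_05. Later it was at 237 and 192 CPM in code 2_03, 370.2 and 281 in code 3_03, 292 and 272 in code 4_03 and 128 and 155 in code 5_03 (adjusted p = 0.0411 among these 4). Sfn ran from 121 to 281 CPM at day 2 and from 107 to 245 CPM later, and Dsc3 from 29.6 to 106 and from 56.3 to 101 CPM. Neither passed in a comparison of the second experiment. Krtdap, the most read envelope gene, was at 264 and 194 CPM in code 5_03 and from 407 to 1087 CPM in the other 6 later libraries (adjusted p = 0.00466).

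The less abundant members were read unevenly. Simple epithelial keratins (4 members), those of single-layered epithelia, had 54 reads in all in the earlier experiment and 186 in the other. Krt7, which has most of them, was read in 4 of 17 and 8 of 16 libraries, at 8.85 CPM at most. Krt18, Krt8 and Krt20 had at most 19 reads each in either table. Other keratins (12 members, such as hair keratins) had 710 and 2923 reads, of which 426 and 2188 were from Krt24. Krt24 was at 15.9, 8.59 and 20.4 CPM at day 0 acetone, 0 in both libraries of code 2 and of code 4 GFP-positive TRM, and up to 44.8 CPM in the second experiment. Krt25 and Krt32, hair follicle keratins next in reads, reached 16.3 and 14.8 CPM there. Each Lce gene had at most 61 reads in a table. For several of these a single library held nearly all reads of a group, as with Krt79 in code 1_04 (119 and 1 reads) and Krt75 in code 3 GFP-negative TRM (0 and 21 reads), so their means in those groups rest on 1 library.

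To see which other genes had a pattern like the members, log2(CPM + 1) of 11115 genes tested in both experiments was correlated with the log2 of the summed member CPM, over 17 and 16 libraries. The 10 genes highest by the mean of both Pearson coefficients were Lgals7 (0.967 and 0.825), Dstn (0.904 and 0.884), Pkp1 (0.929 and 0.759), Fam25c (0.893 and 0.719), Trim29 (0.913 and 0.685), Serpinb5 (0.935 and 0.634), Tmem45a (0.914 and 0.654), Ly6d (0.918 and 0.62), Rab38 (0.788 and 0.736) and Pdzk1ip1 (0.804 and 0.719), first experiment first. Lgals7, Pkp1, Serpinb5 and Ly6d are in the list of barrier partners. Jup, Trp63 and Cdh1, other epithelial genes named after their values were seen, had lower coefficients, mainly in the second experiment, with 0.884 and 0.193 for the junction protein Jup, 0.647 and 0.101 for the basal transcription factor Trp63, and 0.565 and -0.385 for the adhesion protein Cdh1. Libraries of a group share their sort and day, so these values are a description with no test.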

How the data were processed

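CEL-seq2 was run on 33 libraries of sorted mouse CD8 T cells. The values are raw counts of reads per gene, deposited by the authors as 1 table per experiment. The submitters' processing notes name bcl2fastq 2.2, BWA 0.7.15, HTSeq and the build GRCm38. Use of molecular barcodes to collapse reads, and of strand in counting, is not stated by any label or header.

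Counts were tested with edgeR 4.0.16 in R 4.3.3 (quasi-likelihood F test, TMM scaling, filterByExpr by group, robust dispersions), with all libraries of an experiment in 1 fit and 1 mean per column code. A feature was called at a Benjamini-Hochberg adjusted p under 0.05 over all genes tested. Of the members, 37 of 57 and 40 of 54 passed the filter on low counts. CPM values are counts scaled to the same total of gene reads in each library. Lower limits use 3 counts over a group, intervals are 95% exact binomial ones, and both cover counting error only. DESeq2 1.42.0, median-of-ratios scaling, no low-count filter, mitochondrial genes left out, a replicate block and each library left out in turn were the alternatives. The test script was checked on simulated counts. Promoters were searched on both strands with Python 3.11.15.

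The members and lists were chosen with earlier results of these data known. The rule for names took the 3 members with most reads in each role, up to 6 called members per direction by adjusted p, up to 4 partners and the 10 genes most like the summed members. Krt16, Krt6b, Sprr1a, Perp, Col17a1, Dsp, Krtdap and Sprr2g (code 4 against code 3, GFP-negative), Sprr2d and Lor (code 3 against day 0), Dsp, Dsc3 and Col17a1 (code 4 against day 0), Lor (codes 2, 5 and 6), Krt79 and Krt15 (day 11 and day 42), and Krt75 were named beyond it, after their values were seen. So were Krtdap, Sfn and Krt79 for code 4 against day 0.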

Additional observations from a re-analysis of the deposited data

Results flagged for a closer look

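For 7 members the GFP difference at day 1 was not the same in codes 3 and 4, by the interaction term of the edgeR fit. On the log2 scale, code 4 minus code 3, the difference of differences was 16.97 for Krt6b, -4.14 for Krt2, 2.70 for Krt14, -2.43 for Krt10, 4.33 for Krt6a, 5.19 for Krt16 and 14.45 for Sprr2d. The fitted sizes for Krt6b and Sprr2d rest on groups with 0 to 5 reads and are no measure of a fold.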

How the results depend on the processing

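The calls followed through the alternatives were up to 6 members per direction in each comparison, those with the lowest adjusted p. Of these 68 results, 58 kept their call in all alternatives and 10 lost it in some. None of the 557 alternative values with a direction changed it. Calls named beyond these 68, such as that of Lor in code 3 against day 0, were not followed 1 by 1. Counts of called members were within 1.5 times of the reported one in 107 of 116 alternatives. With no low-count filter they were 12 for the GFP comparison, 13 for the difference between codes in it and 15 for the day 2 subsets, and DESeq2 gave 12 for the difference between codes. The cause was not tested. With 1 library left out the counts ran from 5 to 8 for the GFP comparison, 11 to 12 for code 4 against code 3 in GFP-negative TRM, 8 to 12 in GFP-positive TRM and 4 to 8 for the difference between codes. They ran from 8 to 11 for code 3 against day 0, 11 to 14 for code 4 against day 0, 24 to 28 among day 0 acetone and codes 2, 5 and 6, 5 to 7 among the day 2 subsets, 10 to 15 among day 11 and day 42, and 8 to 15 for these against day 2. Where 1 library was left in a group it was taken to vary like the others. The letters A and B are shared between groups of the first experiment. Deviations of the A libraries from their group means correlated between -0.0596 and 0.0329 over 28 pairs of groups. These values cannot tell whether same-lettered libraries came from the same mice, since counting noise can hide a shared source. With the replicate block the counts were 6, 13, 13, 6, 8, 12 and 26, in the order of the first 7 comparisons above, and the calls of Krt24 (GFP comparison), Sprr2d (difference between codes), Krt5 and Sprr2g (code 3 against day 0) were not made. No paired analysis was possible because both libraries of a code share 1 header name in the second experiment. Members with few reads are limited by depth.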
